A study of Mus musculus with 12 samples.

Results

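The oxidative phosphorylation genes of RAW264.7 cells, which are macrophage-like cells of a mouse line, were taken as the rows whose single platform gene symbol began with Nduf, Uqcr, Cox4, Cox5, Cox6, Cox7, Cox8 or Atp5, or was Sdha, Sdhb, Sdhc or Sdhd. The highest-mean probe set stood for a gene. Rows were picked by symbol and mean signal only, but this set of symbols was chosen with earlier results of these data known. The rule gave 93 genes of 30464 named genes on the array. They comprised 6 core and 28 accessory subunits of complex I, 8 complex I assembly factors, 4 subunits of complex II, 8 of complex III, 20 of complex IV, 16 of complex V and 3 pseudogenes.

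RNA from 12 samples was hybridised to 1 Affymetrix array each, with 3 arrays in each of 4 groups after 24 h in culture. Normal medium (replicates 2, 3 and 4) was RPMI with serum. SCR medium (replicates 1, 3 and 4) was medium conditioned by SCR PyMT-41C cells, and KO medium (replicates 1, 2 and 3) came from PyMT-41C cells in which JMJD6 had been knocked out. SCR medium with CSH (replicates 1, 2 and 4) had an agent that the labels call a blockade of the ANXA-1 receptor. Conditioned medium made up 50% of the culture in all 3 conditioned groups. The knockout was in the cells that made the medium, not in the cells measured, and no group had CSH in normal medium. The abbreviation SCR is not spelled out in the labels, which also do not say whether PyMT-41C knockout cells were 1 clone. Whether the replicates of a group were independent cultures is not stated; the p-values therefore weigh differences against the spread of these arrays, part of which may be technical.

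The respiratory chain sits in the inner mitochondrial membrane. Complex I takes electrons from NADH and complex II takes them from succinate; complex III passes them from ubiquinol to cytochrome c, and complex IV passes them to oxygen. Complexes I, III and IV pump protons, and complex V, the ATP synthase, makes ATP as protons flow back. Most subunits are encoded in the nucleus and a small set of central ones in mitochondrial DNA. In macrophages the chain is known to be run differently in inflammatory and alternative activation. Of 13 protein genes of the mitochondrial genome, 0 could be named in the platform table, so all results concern nuclear genes.

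Array medians of the deposited log2 signals lay between 5.40 and 5.52. Of 10 macrophage markers, 9 exceeded the filter on low signals, which asked for a signal above the array median of all probe sets in at least 3 arrays, and Mertk did not. Their mean log2 signal was 13.00 to 13.07 in normal medium and 12.71 to 12.94 in the conditioned media. Of 10 markers of mammary epithelial and tumour cells, the source of the medium, 3 (Krt8, Krt14 and Cldn4) exceeded it. The mean of those 10 ran from 4.93 to 5.03 over all arrays, below every array median. The part of these levels in the results was not tested. Of the 93 members, 90 exceeded the filter and were tested; Cox6b2, Cox8b and Ndufa4l2 did not. A change below is a difference of mean log2 signals with its standard error, called at an adjusted p below 0.05 in limma over all 18119 genes tested. As RNA was taken from whole cultures, fewer cells that express a gene and less RNA per cell cannot be told apart.

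Against normal medium the oxidative phosphorylation genes did not move as a block: complexes I, III, IV and V each held subunits that rose and subunits that fell, with changes from -0.64 to 0.74 on the log2 scale. In SCR medium 14 of 90 members rose and 21 fell, 38.9% of the members, beside 35.2% of all genes tested (19.3% higher and 15.8% lower). In KO medium 13 rose and 24 fell, 41.1%, beside 39.1% of all genes (21.4% higher and 17.6% lower). In SCR medium with CSH 16 rose and 13 fell, 32.2%, beside 35.8% of all genes (20.9% higher and 14.9% lower). With quantile normalization the CSH split was 14 higher and 18 lower, and with median centring 11 higher and 7 lower. These shares of both directions together lie near the background, so the total number of calls is no result about the members. Among the called members 40% rose in SCR medium, 35.1% in KO medium and 55.2% in SCR medium with CSH. Among all called genes the shares were 55%, 54.9% and 58.3%. This split was not tested. The median change was -0.012 in SCR medium, -0.037 in KO medium and 0.028 in SCR medium with CSH, and over all genes 0.017, 0.0067 and 0.033.

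The changes were small. No member changed at least 2-fold in any of the 3 media, whereas 3.08%, 4.08% and 2.82% of all genes did in SCR medium, KO medium and SCR medium with CSH. The median size of a change was 0.16, 0.18 and 0.15 among members and 0.14, 0.15 and 0.14 among all genes, in the same order. Arrays of the medium and of normal medium did not overlap for 45.6%, 57.8% and 50.0% of the members, beside 43.3%, 49.8% and 46.8% of all genes. The median deviation of the members from the mean of normal medium varied between arrays of 1 group: it was 0.068, -0.073 and -0.04 on SCR replicates 1, 3 and 4, 0.0033, -0.06 and -0.0083 on KO replicates 1, 2 and 3, and 0.087, -0.04 and 0.018 on CSH replicates 1, 2 and 4. Replicate 1 was the highest array in all 3 conditioned groups. Normal medium had no replicate 1, so a shift shared by arrays of that number would enter only the conditioned side of these comparisons. Its part in the changes was not tested.

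**Figure D1:**
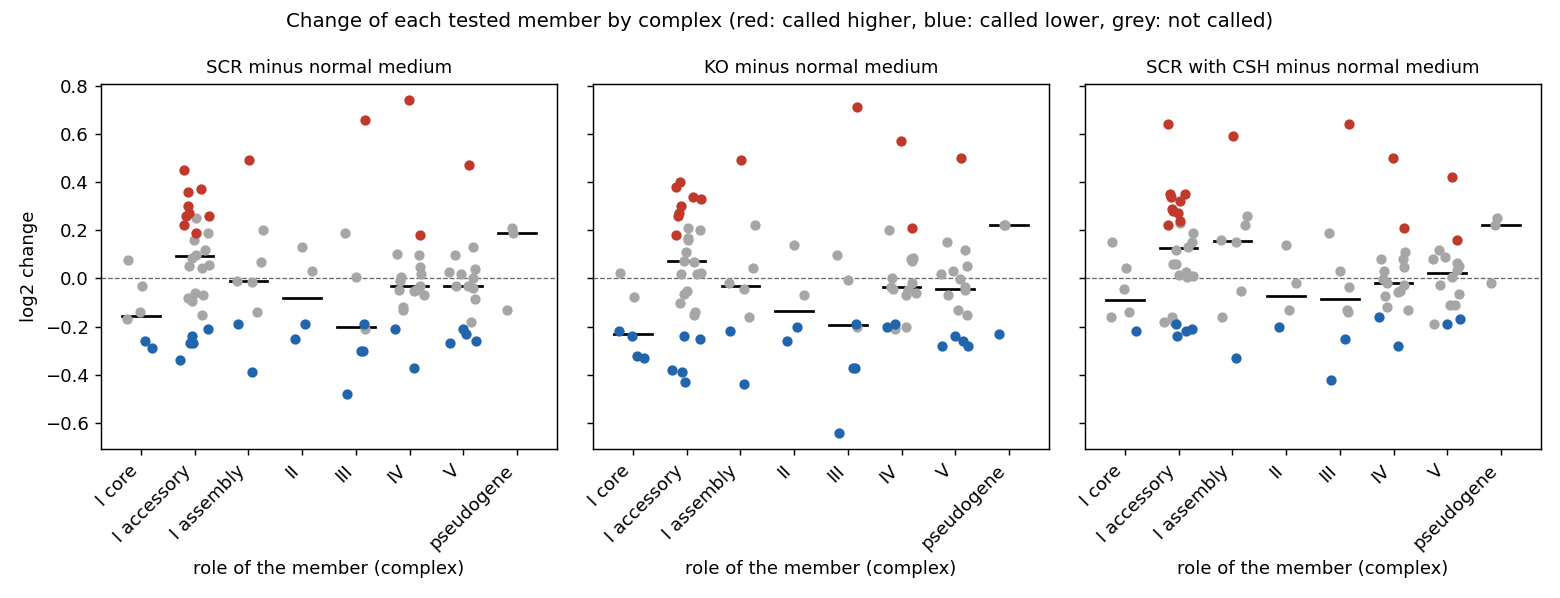
Log2 change of each of the 90 tested members (points) in SCR medium, KO medium and SCR medium with CSH against normal medium, by role; black bars are the medians of a role, red and blue points are called higher and lower, and the spread of points across a column has no meaning. Rises and falls occur together in most roles, while the 6 core subunits of complex I and the 4 subunits of complex II hold blue and grey points only.

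The 3 comparisons share the 3 normal-medium arrays, so their agreement is not independent, and their values are given side by side. In all 3 media 12 members were called higher: the complex I accessory subunits Ndufa2, Ndufa12, Ndufb4b, Ndufb6, Ndufb7, Ndufb9 and Ndufs5, the assembly factor Ndufaf2, and Uqcrq, Cox5a, Cox6a2 and Atp5g1. In all 3 media 11 were called lower: Ndufa10, Ndufb3, Ndufb5, Ndufv2, Ndufaf6, Sdhb, Uqcrc2, Uqcrh, Cox6c, Atp5a1 and Atp5g2. No member was called higher in 1 medium and lower in another, and 46 were called in none. When each of the 12 arrays was left out in turn, 20 of the 35 calls in SCR medium passed every time (8 higher and 12 lower), 24 of 37 in KO medium (8 and 16) and 12 of 29 in SCR medium with CSH (8 and 4).

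**Figure D2:**
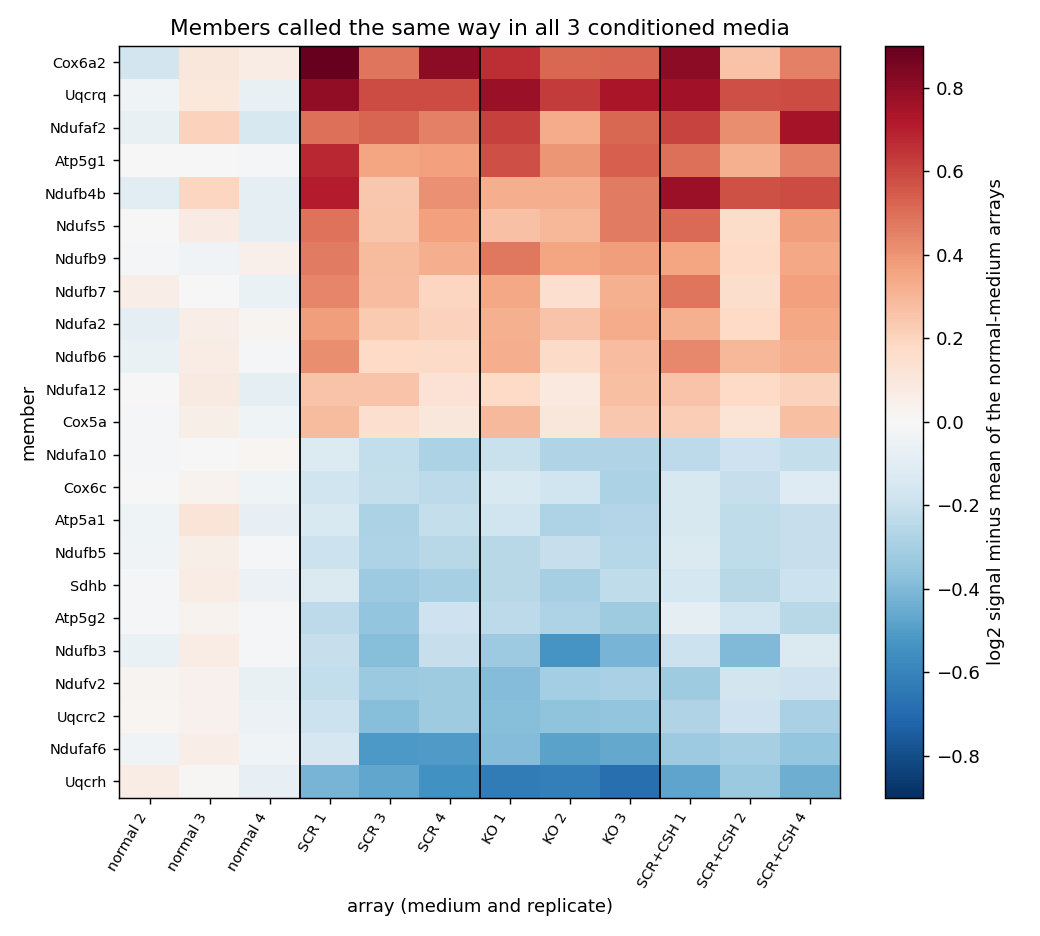
Log2 signal of each array minus the mean of the 3 normal-medium arrays for the 23 members called the same way in all 3 conditioned media (rows) on the 12 arrays (columns); red is higher and blue lower. The rows were chosen by their calls against normal medium; Cox6a2 and Uqcrq are the reddest rows and Uqcrh the bluest.

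The core subunits of complex I, which carry the flavin and the iron-sulfur clusters that lead electrons to ubiquinone, included 0 rises. In SCR medium 2 of 6 fell, with a median of -0.15 over the 6, and in KO medium 4 fell, with a median of -0.23. In SCR medium with CSH 1 fell. Of all genes tested, 19.3%, 21.4% and 20.9% rose and 15.8%, 17.6% and 14.9% fell in SCR medium, KO medium and SCR medium with CSH. These shares are the background for this and all further counts by role, which were not tested against them. Ndufv2, a subunit of the NADH-oxidising module, read 9.97, 9.98 and 9.88 in normal medium, 9.72, 9.61 and 9.62 in SCR medium, 9.55, 9.64 and 9.65 in KO medium and 9.62, 9.78 and 9.76 in SCR medium with CSH. All 9 conditioned arrays lay below the 3 normal arrays. The change of Ndufv2 was -0.29 ± 0.06 (adjusted p = 0.00287), -0.33 ± 0.06 (0.00105) and -0.22 ± 0.06 (0.015), in that order of media. Ndufv1, the subunit that binds NADH and the flavin, fell by 0.26 ± 0.07 in SCR medium (adjusted p = 0.0118) and by 0.32 ± 0.07 in KO medium (0.00237), and its change with CSH was -0.14 ± 0.07 (0.138). Ndufs1 and Ndufs7, named after their values were seen, fell in KO medium by 0.22 (adjusted p = 0.0193) and 0.24 (0.0107). Their changes in SCR medium were -0.17 (0.0781) and -0.14 (0.129), and the test of KO against SCR medium called neither. Those KO calls were lost without KO replicate 3, and that of Ndufs1 also without normal replicate 3 or with median centring (up to 0.0813 and 0.0521). The call of Ndufv1 in SCR medium was lost without normal replicate 3 (adjusted p = 0.0507), and that of Ndufv2 with CSH without normal replicate 2 or 3 or CSH replicate 1 (up to 0.0724). Ndufs3 and Ndufs8 were called in no medium.

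The accessory subunits, which surround that core and are needed for its assembly and stability, moved in both directions. In SCR medium 9 of 28 rose and 5 fell, with a median change of 0.092. In KO medium 8 rose and 5 fell (median 0.072), and with CSH 10 rose and 4 fell (median 0.12). Ndufb9, a subunit of the membrane arm, read 13.82, 13.80 and 13.88 in normal medium, 14.30, 14.12 and 14.16 in SCR medium, 14.31, 14.19 and 14.21 in KO medium and 14.19, 14.01 and 14.18 in SCR medium with CSH. Every conditioned array was above every normal array. The rises of Ndufb9 were 0.36 ± 0.07 (adjusted p = 0.000812), 0.40 ± 0.07 (0.000275) and 0.29 ± 0.07 (0.00344).

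Ndufs5, a subunit on the intermembrane-space side, read 8.69, 8.76 and 8.60 in normal medium and 9.17, 8.93 and 9.05 in SCR medium, a rise of 0.37 ± 0.09 (adjusted p = 0.00785). Its rises were 0.34 ± 0.09 in KO medium (0.0102) and 0.35 ± 0.09 with CSH (0.0104). Ndufb4b, a mouse copy of the Ndufb4 subunit, whose probes may also read that gene, read 12.95, 13.24 and 12.96 in normal medium, 13.76, 13.29 and 13.46 in SCR medium, 13.38, 13.38 and 13.52 in KO medium and 13.82, 13.62 and 13.64 with CSH. No conditioned array overlapped the normal arrays, although SCR replicate 3 and normal replicate 3 lay close together. The changes of Ndufb4b were 0.45 ± 0.11 (adjusted p = 0.00679), 0.38 ± 0.11 (0.0173) and 0.64 ± 0.11 (0.000637). Ndufb7 rose by 0.30 ± 0.09 in SCR medium (0.0199), 0.27 ± 0.09 in KO medium (0.0303) and 0.34 ± 0.09 with CSH (0.0114). Ndufa2 and Ndufb6, named after their values were seen, rose by 0.27 and 0.26 in SCR medium (adjusted p = 0.00365 and 0.0148). Without SCR replicate 1 the rise of Ndufb6 was 0.17, and its call was lost without that array or normal replicate 2 (up to 0.0607) and with median centring.

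Among the accessory subunits that fell, Ndufa8, an intermembrane-space subunit, read 11.15, 11.29 and 11 in normal medium, 10.91, 10.73 and 10.77 in SCR medium, 10.79, 10.74 and 10.77 in KO medium and 11.03, 10.99 and 10.89 with CSH. The SCR and KO arrays lay below the normal arrays, and the CSH arrays overlapped them. The changes of Ndufa8 were -0.34 ± 0.08 (adjusted p = 0.0037), -0.38 ± 0.08 (0.00156) and -0.18 ± 0.08 (0.0989). Ndufb10 showed the same order, with changes of -0.27 ± 0.07 (0.00631), -0.39 ± 0.07 (0.000439) and -0.18 ± 0.07 (0.0534). Ndufb3 fell by 0.27 ± 0.08, 0.43 ± 0.08 and 0.24 ± 0.08 (adjusted p = 0.0203, 0.000884 and 0.0337), and Ndufb5 by 0.24 ± 0.05, 0.24 ± 0.05 and 0.19 ± 0.05 (0.00387, 0.00333 and 0.0157). Without CSH replicate 2 the fall of Ndufb3 with CSH was -0.16 and its call was lost.

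Some accessory calls rested on single arrays. Without normal replicate 3 or SCR replicate 3, Ndufb3 was not called in SCR medium (adjusted p up to 0.0791), and without normal replicate 4 or SCR replicate 1 Ndufb7 was not (up to 0.0851). Ndufb7 was also lost there with median centring of the arrays or with array weights (up to 0.0523). In KO medium the calls of Ndufb4b and Ndufb7 were lost without any of 3 and 4 arrays respectively (normal replicates 2 and 4 and KO replicate 3 for Ndufb4b; normal replicates 3 and 4 and KO replicates 1 and 3 for Ndufb7), with adjusted p up to 0.0689 and 0.108. With CSH, Ndufb7 and Ndufs5 were lost without CSH replicate 1 (0.0554 and 0.0512), Ndufb5 without normal replicate 3 or CSH replicate 2 or 4 (up to 0.06) and Ndufb3 without normal replicate 3 or 4 or CSH replicate 2 (up to 0.146). RefSeq holds pseudogenes named after 9 members, Ndufs5, Ndufa12 and Uqcrh among them, whose transcripts the probes may also read.

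Of the 8 assembly factors, which build complex I and are not part of it, 1 rose and 2 fell in SCR medium. Ndufaf2, a chaperone of a late assembly step, read 8.83, 9.10 and 8.75 in normal medium, 9.39, 9.42 and 9.35 in SCR medium, 9.51, 9.23 and 9.41 in KO medium and 9.50, 9.31 and 9.64 with CSH. All conditioned arrays were above the normal arrays, and the rises were 0.49 ± 0.10 (adjusted p = 0.00246), 0.49 ± 0.10 (0.00215) and 0.59 ± 0.10 (0.000698). Ndufaf6, which acts at an early assembly step, read 9.36, 9.45 and 9.36 in normal medium, 9.24, 8.87 and 8.88 in SCR medium, 9.00, 8.91 and 8.93 in KO medium and 9.06, 9.09 and 9.04 with CSH. SCR replicate 1 was the conditioned array nearest to normal medium. Ndufaf6 fell by 0.39 ± 0.09 (0.00309), 0.44 ± 0.09 (0.00112) and 0.33 ± 0.09 (0.00988). Atp5sl, now named Dmac2 and counted here with complex I assembly, fell by 0.19 ± 0.06 in SCR medium (adjusted p = 0.0215) and 0.22 ± 0.06 in KO medium (0.00865). Without any of 4 arrays (normal replicates 2 and 3 and SCR replicates 3 and 4), or with median centring, Atp5sl was not called in SCR medium (adjusted p up to 0.0732). Ndufaf1, Ndufaf3, Ndufaf4, Ndufaf5 and Ndufaf7 were called in no medium.

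In complex II, which is also an enzyme of the citric acid cycle, the subunits of the catalytic head fell and the membrane anchors were not called. Sdhb, the iron-sulfur subunit, read 12.67, 12.76 and 12.64 in normal medium, 12.56, 12.36 and 12.39 in SCR medium, 12.44, 12.39 and 12.46 in KO medium and 12.53, 12.44 and 12.50 with CSH. All conditioned arrays were below the normal arrays. Sdhb fell by 0.25 ± 0.06 (adjusted p = 0.00695), 0.26 ± 0.06 (0.00512) and 0.20 ± 0.06 (0.0254). Sdha, the flavoprotein, fell by 0.19 ± 0.06 in SCR medium (0.031) and 0.20 ± 0.06 in KO medium (0.0219), and its change with CSH was -0.13 ± 0.06 (0.139). Sdhc changed by 0.03, -0.07 and -0.017 and Sdhd by 0.13, 0.14 and 0.14 (adjusted p from 0.351 to 0.91), and arrays overlapped normal medium except for Sdhd in KO medium. The calls of Sdha were lost with median centring in SCR medium (up to 0.0846) and KO medium (0.087). They were also lost without any normal array or SCR replicate 3 or 4 in SCR medium (up to 0.0954), and without normal replicate 2 or 4 or KO replicate 2 or 3 in KO medium (up to 0.0699). The Sdhb call with CSH was lost with median centring (0.0632) and without normal replicate 2 or 3 or CSH replicate 2 or 4 (up to 0.0965).

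Complex III held the members with the smallest adjusted p in each direction in SCR medium. Uqcrq, a small membrane subunit of the complex, read 15.07, 15.20 and 15.04 in normal medium, 15.90, 15.69 and 15.69 in SCR medium, 15.88, 15.73 and 15.84 in KO medium and 15.86, 15.68 and 15.69 with CSH. The 9 conditioned arrays lay well above the normal arrays and overlapped one another. Uqcrq rose by 0.66 ± 0.07 (adjusted p = 1.71e-05), 0.71 ± 0.07 (5.89e-06) and 0.64 ± 0.07 (2.27e-05). Uqcrh, the hinge subunit that holds cytochrome c1 in contact with cytochrome c, read 14.19, 14.14 and 14.05 in normal medium, 13.71, 13.66 and 13.58 in SCR medium, 13.50, 13.51 and 13.45 in KO medium and 13.65, 13.79 and 13.69 with CSH. The KO arrays were the lowest of all, below every other array. Uqcrh fell by 0.48 ± 0.06 (3.65e-05), 0.64 ± 0.06 (2.17e-06) and 0.42 ± 0.06 (0.00011).

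Uqcrq lies at chr11:53427922-53430831 and Uqcrh at chr4:116066965-116075070 in GRCm38.p6. The RefSeq promoter window of Uqcrh, the member that fell most, is given because it is the only one of the pair with a window in the table used. It covers 250 bases before and 50 from the transcript start on the minus strand, chr4:116075021-116075320. Capitals mark a match to the ETS family motif CCGGAAGT read on the opposite strand.
Uqcrh: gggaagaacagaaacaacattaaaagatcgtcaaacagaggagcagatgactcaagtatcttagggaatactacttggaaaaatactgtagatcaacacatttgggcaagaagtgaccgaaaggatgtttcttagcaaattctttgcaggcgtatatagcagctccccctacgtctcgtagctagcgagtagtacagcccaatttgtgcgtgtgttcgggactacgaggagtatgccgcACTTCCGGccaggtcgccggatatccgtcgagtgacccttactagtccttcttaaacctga
The match lies just before the start; 5 of 79 member windows (6.33%) and 3.89% of all 32851 windows held this motif. It is a match of letters and no evidence that a factor binds there.

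Over the complex III members of the rule, Uqcrq and Uqcrh included, 1 of 8 subunits rose and 4 fell in SCR medium, with a median of -0.20. The counts were 1 and 4 in KO medium and 1 and 2 with CSH. Cyc1, the cytochrome c1 of this complex, lies outside the rule by its symbol and was counted with the carriers. Named after its values were seen, Cyc1 changed by 0.28 ± 0.10 in SCR medium (adjusted p = 0.0559). It rose by 0.35 ± 0.10 in KO medium (0.0158) and 0.38 ± 0.10 with CSH (0.0125). Uqcrc2, a large matrix-side core subunit, read 13.23, 13.25 and 13.16 in normal medium and 13.02, 12.83 and 12.89 in SCR medium, with no overlap. It fell by 0.30 ± 0.06 (adjusted p = 0.00149), 0.37 ± 0.06 in KO medium (0.000269) and 0.25 ± 0.06 with CSH (0.00511). Uqcrfs1, the Rieske iron-sulfur protein, fell by 0.19 ± 0.05 in SCR medium (0.0143) and in KO medium (0.0104), and changed by -0.14 ± 0.05 with CSH (0.0615). The call of Uqcrfs1 was lost without SCR replicate 4 (0.0729) in SCR medium and without KO replicate 1 (0.0515) in KO medium. Uqcr11, a small subunit, fell by 0.30 ± 0.10 in SCR medium (0.0291) and 0.37 ± 0.10 in KO medium (0.00944), but its SCR arrays overlapped normal medium and that call did not pass when normal replicate 2, normal replicate 3, SCR replicate 3 or SCR replicate 4 was left out (up to 0.115). Without SCR replicate 3 the change of Uqcr11 was -0.19. Uqcr10, Uqcrb and Uqcrc1 were called in no medium.

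**Figure D3:**
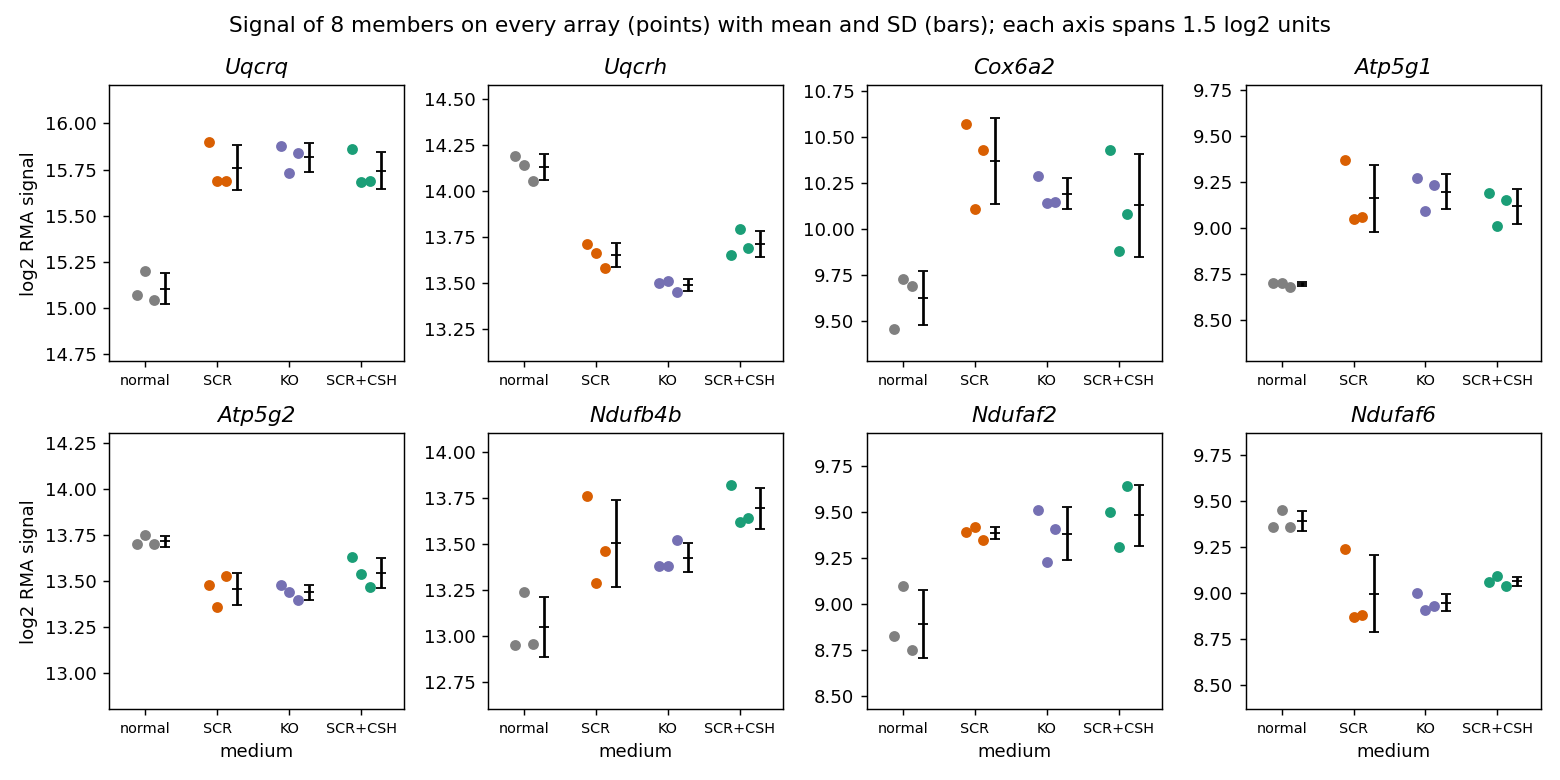
Log2 RMA signal of 8 members on each of the 12 arrays (points) with the group mean and SD (bars, n = 3), by medium; each vertical axis spans the same number of log2 units but starts at its own level. Uqcrq, Cox6a2, Atp5g1, Ndufb4b and Ndufaf2 are higher and Uqcrh, Atp5g2 and Ndufaf6 lower in the conditioned media, and the arrays of the 3 conditioned media overlap for Uqcrq, Cox6a2, Atp5g1, Atp5g2 and Ndufaf2.

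In complex IV, the cytochrome oxidase, 2 of 17 tested subunits rose and 2 fell in each of the 3 media, 23.5% beside 35.2%, 39.1% and 35.8% of all genes. Cox6a2, known as the heart and skeletal muscle isoform of subunit VIa, had the largest rise of all members in SCR medium. It read 9.46, 9.73 and 9.69 in normal medium, 10.57, 10.11 and 10.43 in SCR medium, 10.29, 10.14 and 10.15 in KO medium and 10.43, 9.88 and 10.08 with CSH. The conditioned arrays were all above the normal arrays, with a wide spread inside the SCR and CSH groups. Cox6a2, at chr7:128205435-128206366, rose by 0.74 ± 0.14 (adjusted p = 0.00102), 0.57 ± 0.14 (0.00552) and 0.50 ± 0.14 (0.0128). The CSH call was lost without normal replicate 2 or CSH replicate 1 (up to 0.0588). Cox6a1, the isoform found in most tissues, changed by 0.02, 0.087 and 0.11 (0.447 to 0.912); CSH replicate 1 read 13.42 and the other 11 arrays 12.94 to 13.19.

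Cox7a1, likewise a muscle isoform, went the other way from Cox6a2. It read 9.72, 9.64 and 9.67 in normal medium, 9.14, 9.39 and 9.39 in SCR medium, 9.40, 9.43 and 9.59 in KO medium and 9.44, 9.19 and 9.55 with CSH, all 9 below normal medium. It fell by 0.37 ± 0.10 in SCR medium (adjusted p = 0.00906) and by 0.28 ± 0.10 with CSH (0.0361), and changed by -0.20 ± 0.10 in KO medium (0.12). Without CSH replicate 2 the change of Cox7a1 with CSH was -0.18 (0.157); its call was also lost without CSH replicate 1 or any normal array. Its counterparts Cox7a2 and Cox7a2l, the latter a factor of supercomplex assembly, changed by no more than 0.05 in size in any medium, with adjusted p from 0.487 to 0.854. Cox6c fell by 0.21 ± 0.06, 0.20 ± 0.06 and 0.16 ± 0.06 (0.00984, 0.0116 and 0.0433). Its KO call was lost without KO replicate 3 (0.0572) and its CSH call without any of 8 arrays (normal replicates 2, 3 and 4, SCR replicate 4, KO replicate 2 and all CSH replicates; up to 0.142) and with quantile normalization or median centring.

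Cox5a, a matrix-side subunit, rose by 0.18 ± 0.06, 0.21 ± 0.06 and 0.21 ± 0.06 (adjusted p = 0.0468, 0.0188 and 0.0244), and these calls depended on single arrays. They were lost without any of 7 arrays in SCR medium (all normal replicates, SCR replicates 1 and 3, KO replicate 3 and CSH replicate 1; up to 0.177), without normal replicate 2 or 4 or KO replicate 1 or 3 in KO medium (0.0831) and without normal replicate 2 or 4 or CSH replicate 1 or 4 with CSH (0.0933). The SCR call was also lost without the filter, without the trend on intensity and with median centring, array weights, the replicate block or only the 6 arrays compared. Quantile normalization or median centring ended the CSH call. Cox7b, a small X-linked subunit, fell in KO medium by 0.19 ± 0.05 (0.0121); the change was -0.12 in SCR medium (0.114) and -0.02 with CSH (0.812), and without KO replicate 1 the KO call was lost (0.0513). Cox4i1, the common form of subunit IV, changed by -0.01, 0.0033 and 0.033, and Cox4i2, known as its lung and hypoxia-linked form, by 0.10, 0.20 and 0.08; neither was called. Ndufa4, named for complex I and now placed in complex IV, changed by -0.047, -0.037 and -0.0033 and was not called either. Cox6b1, Cox8a, Cox7b2 and Cox8c were called in no medium. The array means of Cox6b2, Cox8b and Ndufa4l2 lay between 4.25 and 5.43 in every group, below the filter.

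In complex V the genes of 1 subunit moved apart. Atp5g1, Atp5g2 and Atp5g3 encode the same mature protein, the c subunit of the rotor ring, behind different import sequences. Atp5g1 read 8.70, 8.70 and 8.68 in normal medium, 9.37, 9.05 and 9.06 in SCR medium, 9.27, 9.09 and 9.23 in KO medium and 9.19, 9.01 and 9.15 with CSH. All conditioned arrays were above normal medium. Atp5g1 rose by 0.47 ± 0.09 (adjusted p = 0.000984), 0.50 ± 0.09 (0.000459) and 0.42 ± 0.09 (0.00201). Atp5g2 read 13.70, 13.75 and 13.70 in normal medium, 13.48, 13.36 and 13.53 in SCR medium, 13.48, 13.44 and 13.40 in KO medium and 13.63, 13.54 and 13.47 with CSH, and every conditioned array was below normal medium. Atp5g2 fell by 0.26 ± 0.06 (0.00389), 0.28 ± 0.06 (0.00218) and 0.17 ± 0.06 (0.0398). Atp5g3 changed by -0.04, -0.037 and 0.037 (0.738 to 0.747), and its arrays overlapped normal medium in each case. The CSH call of Atp5g2 was lost without any normal array, KO replicate 1 or 2 or CSH replicate 2 or 4 (up to 0.151) and with median centring.

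The highest-mean probe set of Atp5g2 lies on chromosome 7 by its identifier, while the gene is at chr15:102662868-102671047, so it may read a copy. The other probe set of Atp5g2, on chromosome 15, read 12.11 ± 0.09 in normal medium and 11.84 ± 0.12 in SCR medium (SD, n = 3) and changed by -0.27 ± 0.09, -0.37 ± 0.09 and -0.22 ± 0.09. In a fit over all probe sets these had adjusted p of 0.0389, 0.00535 and 0.0838. Both probe sets thus gave a fall in SCR and KO medium. Atp5l likewise was read by a probe set on chromosome 5 although its gene is on chromosome 9. None of its 3 probe sets was called.

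The promoter windows of Atp5g1 and Atp5g2 are shown because these genes of 1 protein moved in opposite directions. That of Atp5g1 is chr11:96075582-96075881 on the minus strand and that of Atp5g2 is chr15:102670998-102671297 on the minus strand, both from RefSeq on GRCm38.p6. Capitals mark the NRF1 motif, which was searched as exactly those letters on both strands. NRF1 is a transcription factor known for nuclear genes of the respiratory chain.
Atp5g1: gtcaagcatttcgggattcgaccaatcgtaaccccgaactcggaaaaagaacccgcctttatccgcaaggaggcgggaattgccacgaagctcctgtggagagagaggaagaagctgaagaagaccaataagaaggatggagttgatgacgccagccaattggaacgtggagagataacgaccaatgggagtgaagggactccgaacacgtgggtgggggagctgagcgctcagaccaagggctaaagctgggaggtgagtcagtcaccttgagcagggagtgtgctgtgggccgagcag
Atp5g2: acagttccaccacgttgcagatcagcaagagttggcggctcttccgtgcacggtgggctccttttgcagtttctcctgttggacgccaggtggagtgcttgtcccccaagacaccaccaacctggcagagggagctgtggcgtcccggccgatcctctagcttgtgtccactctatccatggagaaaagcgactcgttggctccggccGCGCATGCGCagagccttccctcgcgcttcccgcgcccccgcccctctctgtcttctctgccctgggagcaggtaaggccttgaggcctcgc
The window of Atp5g2 held the NRF1 motif and that of Atp5g1 did not, in these letters. The window of Atp5g3, which was not called, did not hold it either. Among windows of members called higher in SCR medium 0 of 10 held the motif. It was in 1 of 17 of those called lower, which is that of Atp5g2, and in 5 of 50 of those not called. The GC content of the windows was 63.0% for Atp5g2 and 55.3% for Atp5g1. Whether the factor binds either gene was not measured.

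In SCR medium 1 of 16 members of complex V rose and 4 fell, in KO medium 1 and 4, and with CSH 2 and 2. Beside Atp5g1, the rise with CSH was that of Atp5md, a small membrane subunit named after its values were seen (0.16, adjusted p = 0.0314). That call was lost without any normal array or CSH replicate 1 or 4 (up to 0.112) and with quantile normalization or median centring. Atp5a1, the alpha subunit of the catalytic head, read 14.34, 14.49 and 14.30 in normal medium, 14.24, 14.09 and 14.16 in SCR medium, 14.20, 14.10 and 14.11 in KO medium and 14.23, 14.15 and 14.17 with CSH. No conditioned array reached the lowest normal array. Atp5a1 fell by 0.21 ± 0.06, 0.24 ± 0.06 and 0.19 ± 0.06 (adjusted p = 0.0156, 0.00697 and 0.0258). Its SCR call was lost without normal replicate 3 or SCR replicate 3 (up to 0.0724) and its CSH call without normal replicate 3 or CSH replicate 2 or 4 (0.113) and with median centring (0.056). Atp5mpl, a small membrane subunit, fell by 0.27 ± 0.07 in SCR medium (0.0101) and 0.28 ± 0.07 in KO medium (0.00766) and changed by -0.19 ± 0.07 with CSH (0.0603). Atp5e, the epsilon subunit, fell by 0.23 ± 0.08 in SCR medium (0.039), where its arrays overlapped normal medium. That call was lost without any of 6 arrays (normal replicates 3 and 4, SCR replicates 3 and 4 and KO replicates 1 and 2; up to 0.15), without the filter and with median centring. Atp5b, the catalytic beta subunit, named after its values were seen, changed by 0.04, 0.053 and 0.05 and was not called. Of the 3 pseudogenes, Atp5c1-ps was called lower in KO medium (-0.23, adjusted p = 0.0249) and neither other was called. That call was lost without normal replicate 2 or 3 or KO replicate 1 or 2 (up to 0.106).

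The promoter table matched 74 of the 90 members that are not pseudogenes, with 79 windows of 300 bases. The motif AAGATGGC of YY1, a factor known for genes of mitochondrial function, was in 12 member windows (15.2%) and in 2.75% of all windows, searched on both strands. Both windows of Atp5sl overlap and hold 1 site, which is counted in each. The NRF1 motif was in 6 (7.59%) and in 0.971%. Member windows were also richer in GC, with a median of 57.3% against 52.7%, and in CpG, with a median of 19 sites against 7, and these differences were not separated from the motif shares. Of the 12 YY1 matches, 9 (75%) lay on the gene's strand 15 to 42 bases past the first transcribed base, all of them at 22 to 38. Of all 927 matches, 21.6% lay on the gene's strand in that range. The range encloses the member positions, so the contrast is a description and no test. The letters hold ATG, so some matches may be the start of translation, which was not tested. The stretches of 22 bases below, with the motif in capitals, are examples of the 9 matches past the start. Apart from Atp5j2 of complex V and the assembly factor Atp5sl, these 9 matches lay in subunits of complex I.
Ndufa3: cgccaagaacAAGATGGCcggg
Ndufc1: cctgcggaacAAGATGGCgccg
Atp5j2: ccaggacttcAAGATGGCgtca
Ndufs7: ggccgaggccAAGATGGCggcg
Ndufs4: tgcctacaggAAGATGGCggcg
They lie at chr7:3617385-3617406 on the plus strand, chr3:51408922-51408943 on the minus strand, chr5:145191507-145191528 on the minus strand, chr10:80249463-80249484 on the plus strand and chr13:114388048-114388069 on the minus strand of GRCm38.p6. By direction of change, the YY1 motif was in 1 of 10 windows of members called higher in SCR medium, 2 of 17 of those called lower (the overlapping windows of Atp5sl) and 9 of 50 of those not called. Of these 5 genes, Ndufs4 rose in SCR medium by 0.26 (adjusted p = 0.0169; 0.0713 without SCR replicate 1), and Ndufa3, Ndufc1, Atp5j2 and Ndufs7 were not called there.

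Among the conditioned media no member was called. For KO against SCR medium limma called 0 of 90 members, beside 0.27% of all genes, with 1 member at an unadjusted p below 0.05 (5.95% of all genes). For SCR medium with CSH against SCR medium it called 0 of 90, beside 0% of all genes, with 3 members at that unadjusted p (6.24% of all genes). For KO medium against SCR medium with CSH it called 0 of 90, beside 1.9% of all genes, with 14 members at that unadjusted p (15.7% of all genes). The median change of the members was -0.015, 0.047 and -0.057 in these comparisons, and that of all genes -0.0033, 0.01 and -0.017. The 3 comparisons share arrays in pairs, so their signs are not independent.

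Uqcrh came nearest to a call. Its KO arrays (13.50, 13.51 and 13.45) lay below the SCR arrays (13.71, 13.66 and 13.58) and the CSH arrays (13.65, 13.79 and 13.69) without overlap. The change was -0.16 ± 0.06 against SCR medium (adjusted p = 0.602) and -0.22 ± 0.06 against SCR medium with CSH (0.0781). With array weights Uqcrh was called in the latter comparison. For the effect of CSH the smallest adjusted p was that of Ndufa3, with a change of 0.15 ± 0.07 (0.781). Arrays of the compared groups did not overlap for 2.22%, 3.33% and 20.0% of the members in the order above, beside 9.37%, 8.59% and 21.8% of all genes.

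The intervals bound what these arrays could miss. Over the 90 members the 95% confidence intervals of KO minus SCR medium reached from -0.48 (Cox6a2) to 0.38 (Cox7a1), those of CSH from -0.54 (Cox6a2) to 0.43 (Ndufb4b), and those of KO medium minus SCR medium with CSH from -0.51 (Ndufb4b) to 0.37 (Cox6a2). They are unadjusted and do not show that the media acted alike on a member. For Uqcrq the interval was -0.10 to 0.21 for KO medium and -0.17 to 0.14 for CSH, each against SCR medium. By role, the medians for CSH against SCR medium were 0.075 for complex I core subunits, 0.03 for its accessory subunits, 0.032 for complex II, 0.05 for complex III, 0.0033 for complex IV and 0.045 for complex V.

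**Figure D4:**
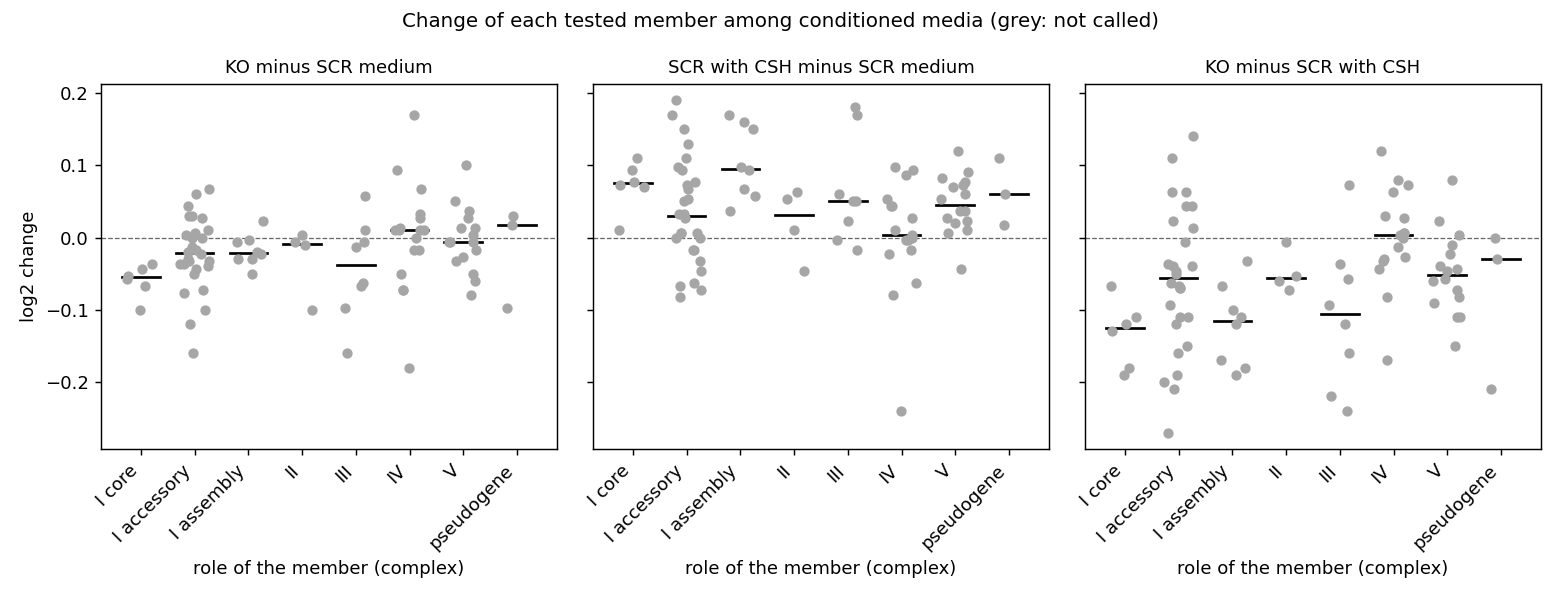
Log2 change of each of the 90 tested members (points) between the conditioned media, by role, with black bars at the medians; no member was called, and sideways spread has no meaning. Points lie between -0.27 and 0.19, and the medians of all roles but complex IV are below 0 for KO medium minus SCR medium with CSH.

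Other genes that serve the chain, from lists outside the rule that defined the members, were counted the same way. Of 34 tested assembly factors, 8 rose and 2 fell in SCR medium, 7 and 2 in KO medium and 13 and 3 with CSH, with medians of 0.088, 0.07 and 0.15. Of all genes tested, 19.3%, 21.4% and 20.9% rose and 15.8%, 17.6% and 14.9% fell in these media, which is the background for this list and the lists that follow. Cox17, the copper chaperone of complex IV, rose by 0.65 ± 0.07 in SCR medium (adjusted p = 2.08e-05), 0.81 ± 0.07 in KO medium (2.31e-06) and 0.67 ± 0.07 with CSH (1.82e-05). Coa7, another complex IV factor, rose by 0.64 ± 0.09 and Ttc19, a complex III factor, by 0.46 ± 0.07 in SCR medium (0.000141 and 0.000163). Bcs1l, which inserts the Rieske protein Uqcrfs1 into complex III, fell by 0.68 ± 0.08 (2.17e-05), 0.81 ± 0.08 (3.79e-06) and 0.58 ± 0.08 (8.17e-05). These 4 calls held when any array was left out.

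Of 22 tested carriers and cofactor genes, 7 rose and 5 fell in SCR medium, 8 and 6 in KO medium and 6 and 3 with CSH. Cycs, the mobile electron carrier cytochrome c between complexes III and IV, rose by 0.53 ± 0.07 (adjusted p = 5.64e-05), 0.56 ± 0.07 (2.8e-05) and 0.49 ± 0.07 (0.000111). Coq10b, a ubiquinone-binding protein, rose by 0.68 ± 0.07 in SCR medium (6.58e-06) and Vdac3, a channel of the outer membrane, by 0.99 ± 0.09 (4.23e-06), while Coq8a, a regulator of ubiquinone synthesis, fell by 0.35 ± 0.05 (0.000131). These changes are as large as or larger than those of most subunits, and were called in all 3 media with any array left out.

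Of 14 tested regulators of mitochondrial biogenesis, 2 rose and 2 fell in SCR medium, 5 and 3 in KO medium and 4 and 2 with CSH. Tfam, a transcription factor that also packages mitochondrial DNA, rose by 0.62 ± 0.11 (adjusted p = 0.000532), 0.71 ± 0.11 (0.000136) and 0.74 ± 0.11 (0.00014). Gabpb1, a subunit of the ETS-type factor NRF2, rose by 0.32 ± 0.05 in SCR medium (0.000393). Ppargc1b, the coactivator PGC-1beta, fell by 0.33 ± 0.06 (0.000979), 0.63 ± 0.06 (4.61e-06) and 0.24 ± 0.06 (0.00804). It was the only gene of the pathway lists called among the conditioned media, 0.38 ± 0.06 lower in KO medium than in SCR medium with CSH (0.00958), a call that held with any array left out (up to 0.0485) and was lost with median centring (0.0528). Twnk, the mitochondrial DNA helicase, fell by 0.29 ± 0.09 in SCR medium (0.0196); without SCR replicate 3 the change was -0.18, and the call was lost without that array or normal replicate 2 (up to 0.0886).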

How the data were processed

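RNA of 12 RAW264.7 samples was measured on Affymetrix arrays. The deposited values are log2 signals that the authors made with RMA in Affymetrix Expression Console on mm10, per the submitters' processing notes; of tool versions, probe filters and batch steps nothing is given in the sources. RMA sets all arrays on a common scale and compresses changes of dim genes. The number of arrays limits the precision. No pair of arrays was a duplicate (0).

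Of 65528 probe sets, 31018 carried 1 gene symbol in the platform table, 1478 more than 1 and 33032 none that is listed; symbols were updated through RefSeq on GRCm38.p6. The highest-mean probe set stood for each of 439 genes with several. Of 30464 named genes, 18119 exceeded the filter. For each difference limma 3.58.1 (R 4.3.3) was used: lmFit with 1 term, the group, on all 12 arrays, and eBayes with a trend on intensity. The residual SD had a median of 0.096 with 8 degrees of freedom. P-values had Benjamini-Hochberg adjustment over all genes tested, and calls were made at adjusted p below 0.05. The procedure was tested on simulated data. Plots were made in Python 3.11.15 with matplotlib 3.10.9.

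Named members are, per role, up to 4 called rises and 4 called falls in SCR medium, largest first, then Sdha to Sdhd and paired isoforms; of each pathway list, the 4 genes with the smallest p in SCR medium. Members named outside this rule, in the lists of members called in all 3 media or in none among others, were chosen after their values were seen. The members and the lists were chosen with earlier results of these data known. Ndufa4 and Ndufa4l2 were counted with complex IV, where the NDUFA4 protein is placed, rather than by symbol with complex I, and Atp5sl (now Dmac2) with complex I assembly; these were changes from the grouping first written. Of 6 fibroblast markers, 3 were named and 0 exceeded the filter. Alternatives were other filters, scalings, array weights, probe set rules, thresholds, the replicate number as a block, the 6 arrays of a comparison alone and each array left out. Taking the probe set on the gene's own chromosome was added after seeing the data.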

Additional observations from a re-analysis of the deposited data

How the results depend on the processing

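At an adjusted p below 0.01, 20 members were called in SCR medium, 23 in KO medium and 12 in SCR medium with CSH, each against normal medium. With median centring 18 members were called in SCR medium with CSH, 11 higher and 7 lower. With quantile normalization the members' median change in SCR medium with CSH was -0.024, and the cause was not tested. With array weights, which ran from 0.39 to 6.14 and were reached with a convergence warning, 1 member (Uqcrh) was called lower in KO medium than in SCR medium with CSH. Leaving out each array in turn gave 27 to 35 calls in SCR medium, 29 to 45 in KO medium and 20 to 35 in SCR medium with CSH, and 0 among the conditioned media; the median change in KO medium ran from -0.043 to 0.0067, the latter without normal replicate 3. Same-numbered arrays of different groups did not deviate together throughout, so the labels' numbers were not taken as pairs. Over 12 such pairs the correlation was -0.065 to 0.295, with 5 over 0.1, and 5 of 12 arrays correlated best with their own number. The pairs of number 1 ran from 0.141 to 0.295 and those of number 2 from 0.075 to 0.25. Those of numbers 3 and 4 ran from -0.065 to 0.063. Whether arrays of number 1 or 2 share a batch was not tested. With the replicate block 35 members were called in SCR medium (12 higher and 23 lower), 37 in KO medium (10 and 27) and 29 in SCR medium with CSH (14 and 15); among named members it ended the calls of Cox5a in SCR medium, Ndufb4b and Ndufb7 in KO medium and Cox7a1 and Atp5md with CSH. For the named members in SCR medium, 886 values under alternatives were counted as unchanged. Of the others, 52 kept the direction but lost the call, 2 passed the threshold newly and 0 calls were reversed. The 886 include members not called whose change switched sign, such as Sdhc (-0.048 to 0.088 with an array left out). With only the 6 arrays of a comparison, the SCR calls of Atp5e, Atp5sl, Cox5a, Sdha, Uqcr11 and Uqcrfs1 were lost. So were the CSH calls of Atp5g2 and Cox6c. Groups of 3 arrays limit what can be called.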

Other observations

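The citric acid cycle, which feeds NADH to complex I and succinate to complex II, held larger falls than the subunits of the chain. The list also held genes of pyruvate dehydrogenase (Pdha1, Pdhb, Dlat and Pdhx), which are not enzymes of the cycle itself. Of 17 tested genes, 5 rose and 6 fell in SCR medium, 5 and 6 in KO medium and 4 and 7 in SCR medium with CSH, with medians of -0.11, -0.16 and -0.01. The rises in SCR and KO medium were those of Pdha1, Pdhb, Dlat, Dld and Mdh2, named after their values were seen. With CSH, Pdha1 was not called. Of all genes tested, 19.3%, 21.4% and 20.9% rose and 15.8%, 17.6% and 14.9% fell in these media. Idh2, the NADP-dependent isocitrate dehydrogenase of mitochondria, fell by 0.90 ± 0.07 on the log2 scale in SCR medium (limma adjusted p = 1.36e-06), 1.05 ± 0.07 in KO medium (2.39e-07) and 0.84 ± 0.07 with CSH (2.53e-06). Fh1, fumarate hydratase, which follows complex II in the cycle, fell by 0.77 ± 0.07 (2.34e-06), 0.84 ± 0.07 (6.94e-07) and 0.74 ± 0.07 (3.41e-06). Idh3g and Idh3b, the regulatory subunits of the NAD-dependent isocitrate dehydrogenase, fell by 0.55 ± 0.07 (6.23e-05) and 0.43 ± 0.06 (6.96e-05) in SCR medium. The calls of these 4 genes held in all 3 media when any array was left out.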
